A study of Oryza sativa with 45 samples.

Results

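Transcripts of 8 seed storage protein genes of rice were followed in seedlings growing underwater. They are those of the glutelin genes GluA1 (OS01G0762500), GluA2 (OS10G0400200), GluA3 (OS03G0427300), GluB1 (OS02G0249800), GluB2 (OS02G0249600), GluB4 (OS02G0268300) and GluD1 (OS02G0249000), and the gene of the seed alpha-globulin (OS05G0499100). The genes were taken by identifier, and all 8 were present among the 35677 genes of the count table and passed the filter on low counts that left 26180 genes for testing. Genome coordinates and sequences of the 8 genes were not used here.

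Glutelins are the main storage proteins of the rice grain. They are made as precursors in the filling endosperm, transported to protein storage vacuoles and cleaved there into an acidic and a basic subunit. The alpha-globulin is packed into the same vacuoles, and the reserves are broken down after imbibition to feed the seedling with amino acids. The genes of the family are named GluA, GluB, GluC and GluD by sequence similarity.

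The 4 genotypes are near-isogenic lines of the indica cultivar IR64. IR64(AG1,SUB1), called the pyramided line, carries the ANAEROBIC GERMINATION 1 locus with TPP7, a trehalose 6-phosphate phosphatase gene that IR64 lacks, together with SUBMERGENCE 1 with the allele SUB1A-1 of an ethylene response factor gene. IR64(AG1) carries the first locus only, IR64(SUB1) the second only, and IR64 carries neither and has the allele SUB1A-2. Dry seeds were sown in soil under water, and RNA was taken from pooled seedlings at 2, 4, 8 and 14 d, labelled embryo at 2 d and coleoptile on the later days. Every group was underwater, so no comparison with seedlings in air is included. Each genotype is represented by 1 line, and at 2 d against the later days the day cannot be told apart from the tissue label, which is shared by 4, 8 and 14 d. The endosperm was not part of the tissue harvested for RNA according to the study's methods.

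Counts are given for 45 libraries, which make 16 combinations of genotype and day. Of these, 13 have 3 libraries, and 3 have 2 libraries (the pyramided line on the first and second sampling days, IR64(SUB1) on the third). The total count per library ran between 12256409 and 24870831, with a median of 20459708. SUB1A, entered as a single gene, had 3312 to 3609 counts in IR64(AG1,SUB1) and 2527 to 4761 in IR64(SUB1) at 14 d, against 499 to 626 in IR64(AG1) and 261 to 367 in IR64. Of 4 green leaf genes, all 4 were called higher at 8 d than at 4 d and again at 14 d than at 8 d as the mean of the genotypes. Among all tested genes, 27.2% and 16.2% were called higher over these steps. The summed level of the 4 green leaf genes had medians of 2.62, 1.98, 1966 and 7929 CPM at 2, 4, 8 and 14 d, although the later tissue is labelled coleoptile. The summed level of 4 genes taken as embryo markers had medians of 32.0, 9.16, 10.7 and 0.262 CPM on the same days. Of these, OS05G0542500 had medians of 5.77 and 10.6 CPM at 4 and 8 d, while the other embryo genes had medians of 0.169, 0 and 0.0925 CPM at 8 d. In these bulk samples, fewer cells with storage transcripts and less storage RNA per cell cannot be told apart.

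The storage transcripts were highest at 2 d and lowest at 14 d in every genotype. The summed counts of the 8 genes were 0.0534 to 0.155% of all counts at 2 d (median 0.118%, 11 libraries), 0.0236 to 0.0607% at 4 d (median 0.0418%, 11 libraries), 0.00260 to 0.0160% at 8 d (median 0.00515%, 11 libraries) and 0.000843 to 0.00313% at 14 d (median 0.00108%, 12 libraries). No single gene of the 8 had all 4 d libraries below all 2 d libraries, where 4.08% of the tested genes did. The ranges of the sum overlapped between 4 and 2 d and between 14 and 8 d, and not between 8 and 4 d. Expression levels below are CPM, counts divided by the library size and set to a common scale, with TMM scaling of the library sizes. They are not corrected for gene length, so levels are compared between libraries and not between genes.

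**Figure D1:**
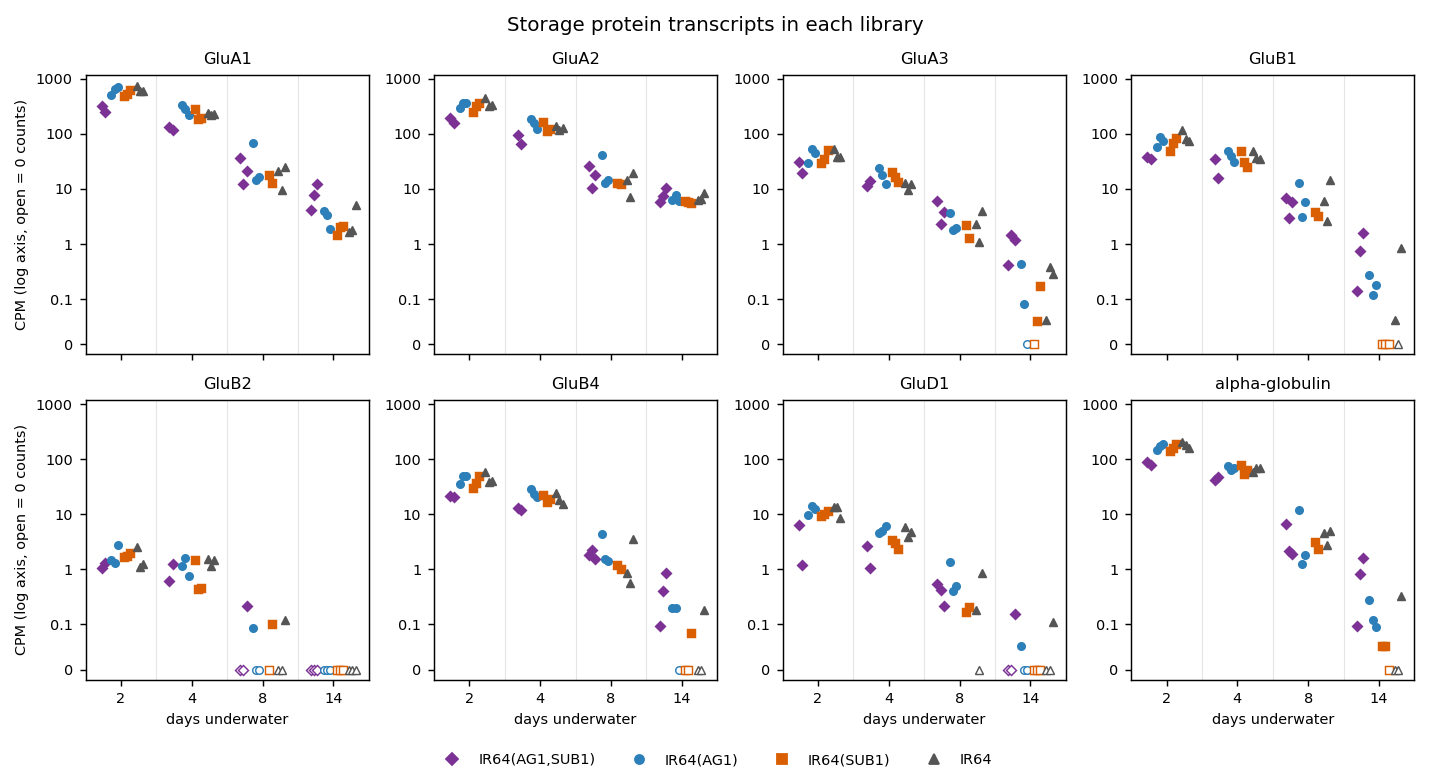
Level of each of the 8 genes in every library, in CPM on a log axis, against the days underwater. Each point is a library, the 4 genotypes stand side by side within a day, and open symbols at the bottom mark libraries with 0 counts. GluA2 stays between 5.64 and 10.6 CPM at 14 d, whereas GluB2 has no count in any of the 12 libraries of that day.

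GluA1, a glutelin precursor gene of the GluA subfamily, had 250 to 750 CPM at 2 d (median 591), 118 to 335 CPM at 4 d (median 225), 9.57 to 69.8 CPM at 8 d (median 17.8) and 1.49 to 12.1 CPM at 14 d (median 2.73). Its median at 14 d was 216-fold lower than at 2 d. Every library of 8 d lay below every library of 4 d, and 11 of the 12 libraries of 14 d lay below every library of 8 d. GluA2, another precursor gene of the subfamily, had 157 to 441 CPM at 2 d (median 323), 66.6 to 186 CPM at 4 d (median 125), 7.10 to 42.1 CPM at 8 d (median 14.7) and 5.64 to 10.6 CPM at 14 d (median 6.25). Its median at 14 d was 51.6-fold lower than at 2 d, and only 2.36-fold lower than at 8 d, where that of GluA1 was 6.50-fold lower. No library of 14 d had fewer than 126 counts of GluA2. GluA3, the remaining precursor gene of the subfamily here, had 19.2 to 54.4 CPM at 2 d (median 37.9), 9.77 to 23.9 CPM at 4 d (median 13.3), 1.10 to 5.95 CPM at 8 d (median 2.27) and 0 to 1.47 CPM at 14 d (median 0.231). At 14 d, 2 of the 12 libraries had no GluA3 count and 5 had at most 3 counts. A level of 3 counts or fewer in a library is treated as a floor here, and against a group with no count in any library only a bound is given.

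GluB1, of the GluB subfamily, had 34.5 to 117 CPM at 2 d (median 73.0), 15.7 to 50.0 CPM at 4 d (median 35.5), 2.60 to 14.3 CPM at 8 d (median 5.84) and 0 to 1.60 CPM at 14 d (median 0.130). It was the only one of the 8 genes with every library of 14 d below every library of 8 d, a separation met by 9.34% of the tested genes. IR64(SUB1) had no GluB1 count in its 3 libraries at 14 d, which puts that group at least 29.0-fold lower than IR64(SUB1) at 8 d and at least 556-fold lower than IR64(SUB1) at 2 d against the floor of 3 counts per library. GluB2, with few counts even at 2 d, had 1.05 to 2.73 CPM at 2 d (median 1.46), 0.444 to 1.61 CPM at 4 d (median 1.15) and 0 to 0.217 CPM at 8 d, where 7 of 11 libraries had no count. At 14 d it had no count in 12 of 12 libraries, which is at least 8.4-fold lower than at 2 d for IR64(AG1,SUB1), 13.6-fold for IR64(AG1), 14.6-fold for IR64(SUB1) and 13.1-fold for IR64. GluB4, a further precursor gene, had 20.7 to 59.3 CPM at 2 d (median 39.4), 12.1 to 29.2 CPM at 4 d (median 19.1), 0.574 to 4.47 CPM at 8 d (median 1.52) and 0 to 0.858 CPM at 14 d (median 0.0811), when 5 of 12 libraries had no count. Glutelin genes of a subfamily are close in sequence, so reads can be shared or lost between copies when they are assigned to genes. The level of any 1 member, that of GluB2 in particular, is uncertain for that reason.

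GluD1, the member of the GluD subfamily, had 1.23 to 13.9 CPM at 2 d (median 9.96), 1.06 to 6.06 CPM at 4 d (median 3.92), 0 to 1.36 CPM at 8 d (median 0.414) and 0 to 0.156 CPM at 14 d, when 9 of 12 libraries had no count. Its libraries of 8 and 4 d overlapped, unlike those of the other 7 genes, whose 8 d libraries all lay below all 4 d libraries, as in 14.2% of the tested genes. The alpha-globulin gene had 77.5 to 204 CPM at 2 d (median 164), 41.3 to 79.4 CPM at 4 d (median 64.9), 1.24 to 11.8 CPM at 8 d (median 2.74) and 0 to 1.60 CPM at 14 d (median 0.0917). At 14 d, 8 of its 12 libraries were at or under the floor of 3 counts.

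The question of when the storage transcripts fell was put to each genotype with the edgeR quasi-likelihood test, a gene being called at a Benjamini-Hochberg FDR under 0.05 over all tested genes and a change of more than 1 on the log2 scale in either direction. Between 2 and 4 d the fall was moderate and differed in its calls between genotypes. At 4 d against 2 d, 18 of 32 tests of a gene in a genotype were called lower and 0 higher, where 3.71% of all tests of these comparisons were called lower and 6.8% higher. By genotype, the background of genes called lower was 3.72% for IR64(AG1,SUB1), 3.16% for IR64(AG1), 4.1% for IR64(SUB1) and 3.87% for IR64. The called genes were GluA2 in IR64(AG1,SUB1), GluA1, GluA2, GluA3 and alpha-globulin in IR64(AG1), these 4 with GluB4 and GluD1 in IR64(SUB1), and those 6 with GluB1 in IR64. The median log2 fold change of the 8 genes was -0.93 for IR64(AG1,SUB1), -1.15 for IR64(AG1), -1.20 for IR64(SUB1) and -1.36 for IR64, and the median of all tested genes lay between 0 and 0.00457. Whether the pyramided line fell less than IR64 over these days was tested for each gene, and none of the 8 differed, with FDR between 0.476 and 1 and a 95% interval of the log2 difference that ran from -0.15 to 2.07 for GluA3. Between days, single libraries were left out by gene for GluA1, GluA2, GluB1 and alpha-globulin only. In IR64(AG1,SUB1), GluA2 had a log2 fold change of -0.96 without replicate 2 at 2 d and -0.88 without replicate 2 at 4 d. Both values are short of the fold threshold and come from fits that leave 1 library in a group. The call of GluA1 in IR64(AG1) was lost without replicate 2 or 3 at 2 d or at 4 d (FDR up to 0.111). That of GluB1 in IR64 was lost without replicate 1 or 2 at 2 d or any replicate at 4 d (FDR up to 0.151). In each of these IR64 cases, 5 genes were called lower in IR64 in place of 7. In IR64(SUB1), the count of 6 was 4 without replicate 3 at 2 d or at 4 d, and 7 without replicate 1 at 4 d. As the mean of the genotypes, GluA1 fell by 1.29 (SE 0.21, FDR 1.98e-06), GluA3 by 1.32 (SE 0.19, FDR 2.6e-07) and alpha-globulin by 1.24 (SE 0.20, FDR 1.52e-06) on the log2 scale in the edgeR test, and GluB2 had a log2 fold change of -0.58 (SE 0.39, FDR 0.23).

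The storage genes fell together between 4 and 8 d, when all 32 tests were called lower, against 9.43% of all tests of these comparisons, with 23.3% called higher. As the mean of the genotypes, the log2 fold change at 8 d against 4 d was -4.31 for GluB2 (SE 0.52, FDR 1.06e-08) and -4.03 for alpha-globulin (SE 0.24, FDR 6.47e-18), and it was -2.52 for GluA3 (SE 0.21, FDR 2.23e-13, edgeR in each case), with the other 5 genes between these values. The GluB2 value rests on 2 to 5 counts per genotype at 8 d. The median of the 8 genes was -3.20, beside 0.09 for all tested genes. The genotype medians were -2.36 for IR64(AG1,SUB1), -2.98 for IR64(AG1), -3.79 for IR64(SUB1) and -3.56 for IR64.

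The fall went on to 14 d in most genes. At 14 d against 8 d, 27 of 32 tests were called lower and 0 higher, against 8.9% called lower and 13.4% called higher among all tests of these comparisons. The 5 tests that were not called were those of GluB2 in the 4 genotypes, with libraries at or near 0 on both days, and that of GluA2 in IR64, which had a log2 fold change of -0.97 (SE 0.33, FDR 0.0129 in the edgeR test). As the mean of the genotypes, alpha-globulin fell by 4.59 (SE 0.44, FDR 1.23e-11), GluB4 by 3.95 (SE 0.40, FDR 4.48e-11) and GluA1 by 2.66 (SE 0.24, FDR 2e-12) on the log2 scale, while GluA2 fell by 1.25 (SE 0.17, FDR 3.16e-08). At 14 d, 8 of 12 libraries were at or under the floor for alpha-globulin and 7 of 12 for GluB4, so the size of these 2 changes rests on few counts. Fitted values of GluB1, GluB2 and GluD1 over this step rest on genotypes with no count at 14 d and are not quoted. In the pyramided line alone, GluA1 fell by 1.53 (SE 0.43, FDR 0.00398) and alpha-globulin by 2.01 (SE 0.61, FDR 0.00759). The calls of GluA1, GluA2 and alpha-globulin in the pyramided line over this step were lost without its replicate 1 at 8 d (FDR 0.0673, 0.0676 and 0.161). Without its replicate 1 at 14 d, GluA2 fell by 0.97 and alpha-globulin had FDR 0.0577. The call of GluA2 in IR64(SUB1) was lost without either of its libraries at 8 d (FDR 0.0759 and 0.0665).

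**Figure D2:**
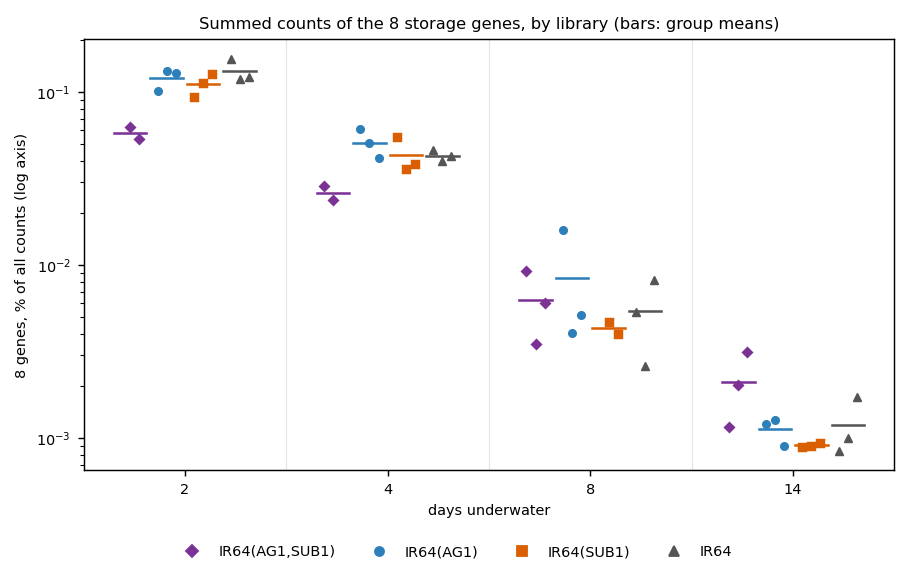
Summed counts of the 8 genes as a percentage of all counts of a library, on a log axis, against the days underwater, with a point per library and a bar at the mean of each genotype and day. At 2 d the pyramided line has 0.0534 and 0.0631%, below the other 9 libraries of that day, and at 14 d it has the highest mean of the 4 genotypes, 0.00211%.

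The mix of storage transcripts changed along with their amount. GluA2 made up 26.5 ± 0.97% of the 8-gene counts at 2 d (SD, n = 11), 26.3 ± 1.3% at 4 d (SD, n = 11), 31.9 ± 3.2% at 8 d (SD, n = 11) and 63.3 ± 14.6% at 14 d (SD, n = 12). Every library of 14 d had a larger GluA2 share, from 37.8 to 80.1%, than any library of 8 d, from 27.0 to 37.1%, and the mean share was higher in 4 of 4 genotypes (difference 31.4 percentage points, 2-sided permutation test, p = 2e-05, the smallest the 100000 resamples can give, 9.6e-05 after Benjamini-Hochberg adjustment over 24 tests). GluA1 made up 46.7 ± 1.4% at 2 d and 45.0 ± 2.2% at 4 d (SD, n = 11 each), then 40.7 ± 3.5% at 8 d (SD, n = 11) and 29.7 ± 8.4% at 14 d (SD, n = 12), a fall over each step in the permutation test (adjusted p = 0.0425, 0.00544 and 0.00218), in 4, 4 and 3 of 4 genotypes.

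The alpha-globulin share was 13.4 ± 0.68% at 2 d and 13.3 ± 2.0% at 4 d, with no difference past the threshold (difference -0.11 percentage points, permutation test, adjusted p = 0.862), and then 6.96 ± 2.4% at 8 d and 1.55 ± 1.8% at 14 d, lower over both steps in 4 of 4 genotypes (adjusted p = 9.6e-05 for each). GluB1 rose within the mix before it fell. Its share was 5.85 ± 0.65% at 2 d, 7.34 ± 1.5% at 4 d and 7.95 to 19.6% at 8 d (median 9.81%), higher over both steps in 4 of 4 genotypes (permutation test, adjusted p = 0.0058 and 0.00149), and 1.87 ± 2.1% at 14 d, with no overlap with 8 d (adjusted p = 9.6e-05). Within a day, the pyramided line at 14 d had GluA2 shares of 37.8 to 54.8%, with lower shares in 2 of its 3 libraries than in any library of the other genotypes. Shares are relative, so a gene that falls less than the others gains share without rising.

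**Figure D3:**
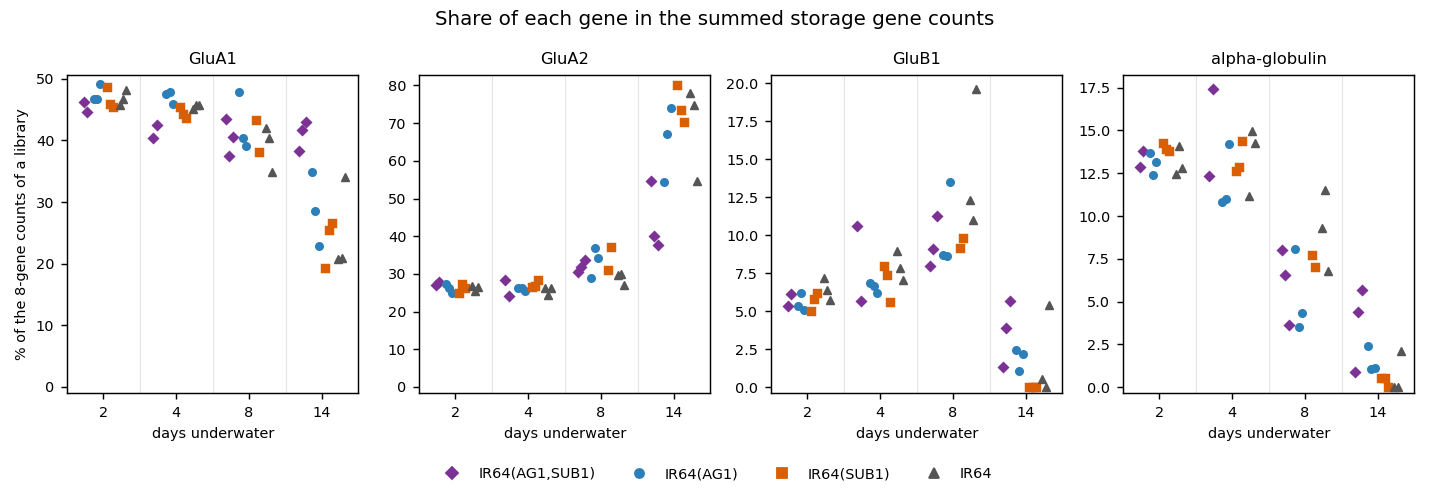
Share of GluA1, GluA2, GluB1 and alpha-globulin in the summed counts of the 8 genes, in percent, against the days underwater, with a point per library. The GluA2 share averages 26.5% at 2 d and lies between 37.8 and 80.1% at 14 d, while the alpha-globulin share has means of 13.4 and 1.55% on these days.

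The effect of each locus was read by setting each line against IR64 on the same day, comparisons that share the IR64 libraries. The AG1 locus alone went with no called storage gene. In IR64(AG1) against IR64, 0 of 32 tests were called in either direction by the edgeR quasi-likelihood test, with 2 of 32 at an unadjusted p under 0.05 and 0 by DESeq2, where 0.435% of all tests were called lower and 0.657% higher. The count was 1 lower without replicate 1 of IR64(AG1) at 8 d and 2 higher without replicate 3 of IR64 at 8 d. At 2 d, the log2 fold change of GluA1 was -0.05 with a 95% interval from -0.80 to 0.70, and that of alpha-globulin was -0.08 with an interval from -0.78 to 0.62. In IR64(SUB1) against IR64, 0 of 32 tests were called by edgeR, with 1 of 32 at an unadjusted p under 0.05 and 1 called lower by DESeq2, where 0.869% of all tests were called lower and 0.786% higher. GluA1 differed by -0.24 at 2 d (interval -0.99 to 0.51) and by -0.04 at 4 d (interval -0.80 to 0.71). At 8 and 14 d the intervals are wide, as for GluA3 at 14 d, from -3.76 to 0.56, so a difference of several-fold was not detectable for the low genes on these days.

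At 2 d the storage transcript levels of the pyramided line lay below those of IR64, with 1 gene past the test. GluA1 stood at 327 and 250 CPM in the 2 libraries of IR64(AG1,SUB1), against 512, 661 and 715 CPM in IR64(AG1), 485, 541 and 626 CPM in IR64(SUB1) and 750, 591 and 614 CPM in IR64. GluA2 stood at 192 and 157 CPM in IR64(AG1,SUB1), against 299, 372 and 363 CPM in IR64(AG1), 250, 322 and 362 CPM in IR64(SUB1) and 441, 323 and 337 CPM in IR64. Both libraries of the pyramided line lay below the 9 others for both genes. The alpha-globulin gene stood at 90.9 and 77.5 CPM in IR64(AG1,SUB1), against 150, 175 and 192 CPM in IR64(AG1), 143, 164 and 190 CPM in IR64(SUB1) and 204, 178 and 163 CPM in IR64. GluD1 stood at 6.40 and 1.23 CPM in IR64(AG1,SUB1), against 9.65, 13.9 and 12.5 CPM in IR64(AG1), 9.33, 9.96 and 11.5 CPM in IR64(SUB1) and 13.7, 13.7 and 8.71 CPM in IR64. In all, 6 of the 8 genes (GluA1, GluA2, GluB1, GluB4, GluD1 and alpha-globulin) had both libraries below all others at 2 d, where 7.49% of the tested genes did, and 4 of 8 (GluA1, GluA2, GluB4 and alpha-globulin) did at 4 d, where 3.78% of the tested genes did.

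In the edgeR test over all genes, the log2 fold change of IR64(AG1,SUB1) against IR64 at 2 d was -1.08 for GluA2 (SE 0.33, FDR 0.0329), the only call among 32 tests, where 1.05% of all tests were called lower and 0.959% higher. Unadjusted p was under 0.05 in 13 of the 32 tests. The other 7 genes had log2 fold changes at 2 d between -1.68 and -0.47, with FDR between 0.0584 and 0.816, GluA1 at -1.18 (SE 0.45, FDR 0.0882) and GluD1 at -1.68 (SE 0.58, FDR 0.0584) among them. The median of the 8 genes was -1.13, beside 0 for all tested genes. This count depended on the fit: 7 tests were called lower when only the libraries of the groups compared were fitted, and none without replicate 3 of the pyramided line or replicate 1 of IR64 at 2 d. The GluA2 call was also lost without replicate 2 of the pyramided line at 2 d (FDR 0.0869). The interaction of the loci, which asks whether the pyramided line departs from the sum of the single-locus effects, had 0 of 32 calls in the edgeR test, with 4 of 32 at an unadjusted p under 0.05 and 2 called higher by DESeq2, where 1.59% of all tests were called lower and 1.45% higher. Without replicate 1 of IR64(AG1) at 8 d, or without its replicate 1 at 14 d, 1 test was called higher.

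Of 6 endosperm starch genes, 2 were called lower in the pyramided line than in IR64 at 2 d and none higher, where 2.82% of all genes were called lower and 1.46% higher. Granule-bound starch synthase I (GBSSI, OS06G0133000), which makes amylose in the grain, stood at 36.6 and 38.2 CPM in IR64(AG1,SUB1), against 85.9 to 92.5 CPM in IR64(AG1), 87.9 to 107 CPM in IR64(SUB1) and 81.3 to 133 CPM in IR64, and was called lower than in IR64 (log2 fold change -1.56, SE 0.36, FDR 0.00351, edgeR). The summed level of the 6 genes was 107 to 110 CPM in IR64(AG1,SUB1) and 186 to 233 CPM in IR64. Of 4 embryo genes, none was called at 2 d, with summed levels of 41.4 to 54.3 CPM in IR64(AG1,SUB1) and 26.6 to 84.4 CPM in IR64. How much of the storage gene difference moves with these transcripts was not tested.

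At 14 d the storage transcript levels lay higher in the pyramided line than in IR64 on average, with no gene past the test. GluA1 stood at 4.11, 7.91 and 12.1 CPM in IR64(AG1,SUB1), against 4.03, 3.34 and 1.89 CPM in IR64(AG1), 1.49, 2.03 and 2.13 CPM in IR64(SUB1) and 1.66, 1.83 and 5.22 CPM in IR64. GluA3 stood at 0.420, 1.47 and 1.17 CPM in IR64(AG1,SUB1), with 9, 32 and 30 counts, against 11, 2 and 0 counts in IR64(AG1), 0, 1 and 5 counts in IR64(SUB1) and 1, 10 and 8 counts in IR64. GluB1 had 3, 16 and 41 counts in IR64(AG1,SUB1), against 7, 3 and 4 counts in IR64(AG1), 0 counts in each library of IR64(SUB1) and 1, 0 and 23 counts in IR64. The alpha-globulin gene had 2, 18 and 41 counts in IR64(AG1,SUB1), against 7, 3 and 2 counts in IR64(AG1), 1, 1 and 0 counts in IR64(SUB1) and 0, 0 and 9 counts in IR64. Replicates 2 and 3 of the pyramided line were high in these genes, while its replicate 1 lay within the range of the other genotypes, so no gene of the 8 had all libraries of the line above all others, where 3.54% of the tested genes did. The summed level of the 6 endosperm genes at 14 d was 125 to 136 CPM in IR64(AG1,SUB1), against 113 to 117 CPM in IR64(AG1), 115 to 120 CPM in IR64(SUB1) and 113 to 122 CPM in IR64, with none of the 6 called against IR64. The largest part of this sum was OS08G0345800, with a median of 79.2 CPM over the 12 libraries of 14 d. GBSSI was low, at 0.420, 0.230 and 0.156 CPM in IR64(AG1,SUB1) and 0.579, 0 and 0.109 CPM in IR64. The summed level of the 4 embryo genes had a median of 1.17 CPM in IR64(AG1,SUB1), against 0.362 CPM in IR64(AG1), 0.172 CPM in IR64(SUB1) and 0.181 CPM in IR64, with none called. No embryo gene had more than 28 counts in a library of that day. The part of these transcripts in the storage gene levels was not tested.

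Against IR64(SUB1) at 14 d, the pyramided line was called higher for GluA1 (log2 fold change 2.10, SE 0.52, FDR 0.0104), GluA3 (3.65, SE 0.85, FDR 0.00555) and GluB1 (FDR 0.0468) in the edgeR test, where 1.17% of all tests of this pair were called higher and 0.842% lower. GluA3 was at or under the floor in 2 of 3 libraries of IR64(SUB1). GluB1 was at least 6.78-fold higher than the floor of IR64(SUB1), and at least 3.6-fold without replicate 3 of the pyramided line. This count of 3 was 1 without replicate 3 of the pyramided line or replicate 1 of IR64(SUB1) at 14 d and 5 without replicate 1 of the pyramided line, and the GluB1 call was lost without any 1 of the IR64(SUB1) libraries (FDR 0.127 to 0.157) or without replicate 2 or 3 of the pyramided line (FDR 0.0871 and 0.348). Without replicate 2 of the pyramided line at 2 d, 1 test of this pair was called lower. Against IR64(AG1), GluA3 was called higher at 14 d (2.48, SE 0.73, FDR 0.0482), the only call of 32, where 1.03% of all tests were called higher and 1.01% lower. That call was lost without replicate 2 or 3 of IR64(AG1) or replicate 2 or 3 of the pyramided line at 14 d (FDR 0.181 to 0.25), while 2 tests were called higher without replicate 1 of the pyramided line at 14 d and 1 lower without its replicate 2 at 2 d. Against IR64, edgeR called no gene at 14 d, with 4 of 8 at an unadjusted p under 0.05 and 3 of 32 tests called higher by DESeq2, and with GluA1 at 1.46 (SE 0.49, FDR 0.135), GluA3 at 2.05 (SE 0.68, FDR 0.126) and alpha-globulin at 2.86 (SE 1.13, FDR 0.298). Without replicate 1 of the pyramided line at 14 d, 2 tests were called higher, and 1 without replicate 3 of IR64 at 14 d. When the difference between the pyramided line and IR64 at 14 d was itself set against that at 2 d, 4 of the 8 genes were called (GluA1, GluA3, GluB4 and alpha-globulin), where 1.79% of all genes were called higher, and none of the 4 without replicate 3 of the pyramided line or replicate 1 of IR64 at 14 d. IR64(AG1) and IR64(SUB1) were not separated, with 0 of 32 calls by edgeR, 4 of 32 at an unadjusted p under 0.05 and 1 called higher by DESeq2, where 0.685% of all tests were called higher and 0.558% lower.

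**Figure D4:**
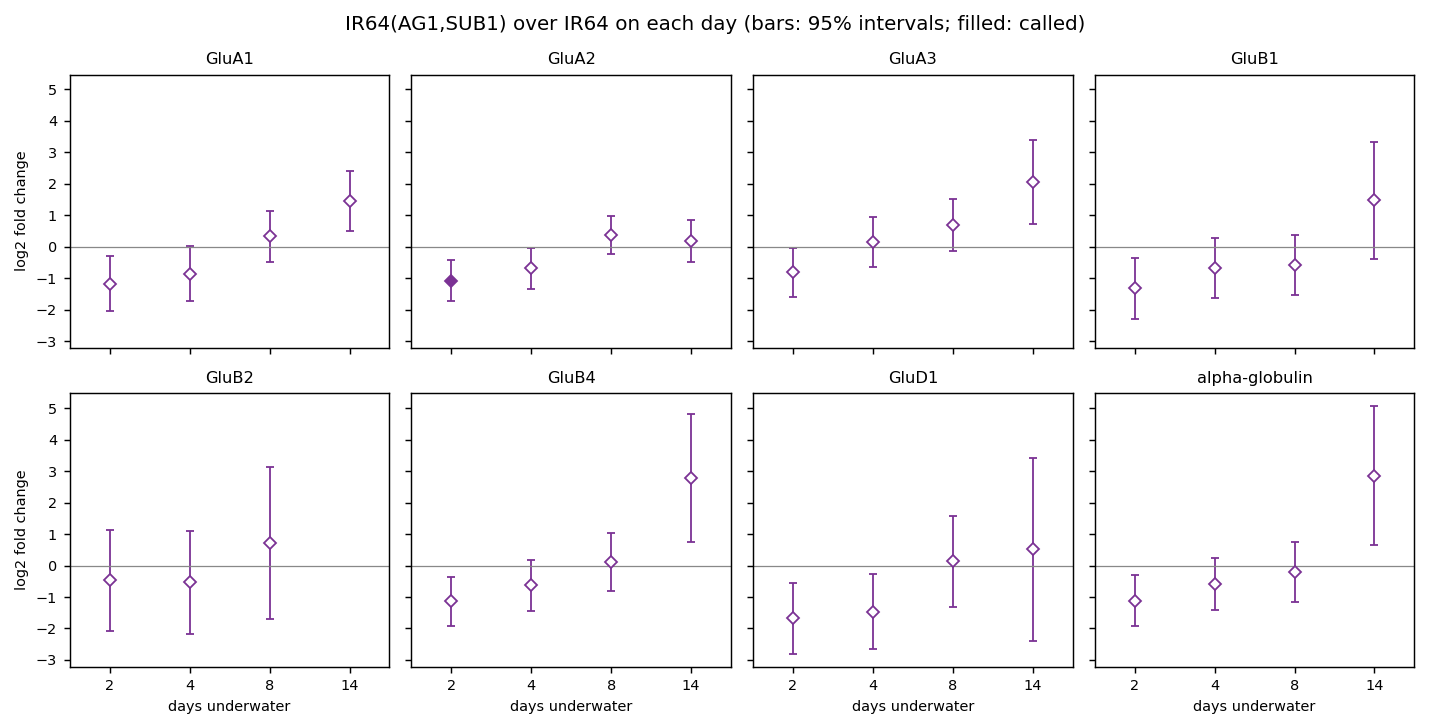
Log2 fold change of IR64(AG1,SUB1) over IR64 for each of the 8 genes against the days underwater, with bars for the 95% interval and a filled symbol where the gene was called. The values lie between -1.68 and -0.47 at 2 d, with only GluA2 called, and between 0.19 and 2.86 at 14 d, with none called. GluB2 at 14 d is left out because both groups have no count.

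Some libraries stood apart from their group across several storage genes at once. At 8 d, GluA1 was at 69.8 CPM in replicate 1 of IR64(AG1), against 14.3 and 16.9 CPM in its replicates 2 and 3, and alpha-globulin was at 11.8 CPM in replicate 1, against 1.24 and 1.86 CPM in the others. Replicate 1 of IR64(AG1) and replicate 3 of IR64 at 8 d were each the highest of their 3 libraries in 8 of 8 genes. Replicate 3 of IR64(AG1,SUB1) and replicate 3 of IR64 at 14 d were the highest in 6 of 8. In 10 of the 13 groups of 3 libraries, the same library was the highest in 6 or more of the 8 genes. In replicate 1 of IR64(AG1) at 8 d, the summed level of the 4 embryo genes was 26.2 CPM, against 7.61 and 3.09 CPM in replicates 2 and 3. No embryo gene other than OS05G0542500 was above 1.11 CPM in any library of 8 d, so this sum rests on that gene. In replicate 1 of IR64(AG1), the summed level of 7 other storage protein genes was 48.7 CPM, against 11.04 and 18.2 CPM in replicates 2 and 3. Its green leaf genes summed to 1805 CPM, against 3141 and 3273 CPM, and its 6 endosperm genes to 87.2 CPM, against 94.5 and 90.6 CPM, with GBSSI at 3.02 CPM, against 0.662 and 0.889 CPM. How far these levels bear on the storage genes of the library was not tested. With the 4 libraries named as highest left out, a set chosen after seeing the data, the pyramided line had 6 tests called lower than IR64. GluA3 was then no longer called against IR64(AG1) at 14 d (FDR 0.121). Replicate 1 of IR64 and replicate 3 of IR64(SUB1) at 2 d were also the highest in 8 of 8 genes but were kept. So was replicate 1 of IR64(SUB1) at 4 d, highest in 8 of 8. Without replicate 1 of IR64 at 2 d alone, 0 tests were called lower than IR64.

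Other genes of seed storage followed a like course. Of 7 further storage protein genes listed by identifier, 6 passed the filter, and as the mean of the genotypes 4 of 6 were called lower at 4 d against 2 d, 6 of 6 at 8 d against 4 d and 4 of 6 at 14 d against 8 d. The median log2 fold change was -1.21 at 4 d against 2 d and -3.32 at 8 d against 4 d, beside 0.02 and 0.09 for all tested genes. Among all tested genes, 5.05%, 10.4% and 10.8% were called lower over these steps and 9.03%, 27.2% and 16.2% higher. OS02G0453600, annotated as similar to glutelin, had medians of 214, 75.7, 2.73 and 0.342 CPM at 2, 4, 8 and 14 d. The 10 kDa prolamin gene (OS03G0766100), of the alcohol-soluble storage proteins, had medians of 132, 52.9, 6.73 and 4.22 CPM, and its log2 fold change at 14 d against 8 d was -0.70 (SE 0.18, FDR 0.000585), short of the fold threshold. In IR64(AG1,SUB1) against IR64 at 2 d, OS02G0453600 (-1.22, SE 0.28, FDR 0.00321), the 10 kDa prolamin gene (-1.49, SE 0.34, FDR 0.00312) and OS06G0507200 (-1.56, SE 0.41, FDR 0.0104) were called lower in the edgeR test, 3 of the 6 tested, where 2.82% of all genes were called lower and 1.46% higher. These 3 genes are in lists that the study drew up from the same libraries, so their direction is not independent evidence.

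Of 8 genes that control or process storage proteins, 2 were called lower at 4 d against 2 d, 3 lower and 1 higher at 8 d against 4 d, and 2 lower at 14 d against 8 d, as the mean of the genotypes. Among all tested genes, 5.05%, 10.4% and 10.8% were called lower over these steps and 9.03%, 27.2% and 16.2% higher. The summed level of the 8 listed genes fell, with medians of 1925, 1290, 1001 and 791 CPM at 2, 4, 8 and 14 d. The largest part of this sum was OS11G0199200, with medians of 1464, 1058, 690 and 534 CPM. Not every member fell. OS04G0537900 had medians of 29.7, 33.0, 46.2 and 52.7 CPM at 2, 4, 8 and 14 d, and OS02G0115900 had medians of 152, 44.1, 198 and 146 CPM. VP1 (OS01G0911700), the B3 transcription factor of seed maturation and dormancy, had medians of 203, 88.0, 22.5 and 1.01 CPM at 2, 4, 8 and 14 d. At 14 d, VP1 stood at 2.47, 5.66 and 7.48 CPM in IR64(AG1,SUB1), against 1.12, 0.0402 and 0.899 CPM in IR64(AG1), 0.602, 0.162 and 0.344 CPM in IR64(SUB1) and 1.61, 0.229 and 2.03 CPM in IR64. All 3 libraries of the pyramided line lay above the 9 others, and VP1 was called higher there than in IR64 (log2 fold change 2.02, SE 0.40, FDR 0.00103, edgeR), where 1.39% of all genes were called higher and 0.374% lower. At 2 d, by contrast, VP1 was not called against IR64 (-0.30, SE 0.30, FDR 0.601). OS02G0252400, annotated as a Dof zinc finger transcriptional activator, had medians of 24.9, 19.6, 10.4 and 2.27 CPM on the 4 days.

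**Figure D5:**
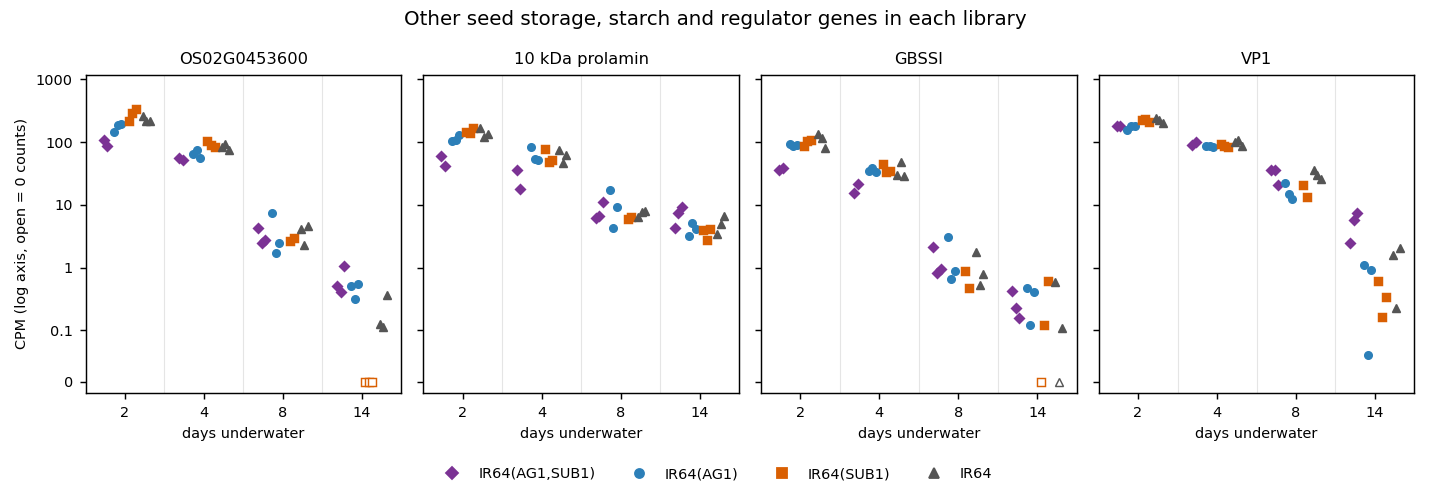
Level of 4 seed genes outside the 8 in every library, in CPM on a log axis, against the days underwater, with open symbols for 0 counts. GBSSI and VP1 have medians of 91.0 and 203 CPM at 2 d and of 0.193 and 1.01 CPM at 14 d, and the VP1 levels of the pyramided line at 14 d, 2.47 to 7.48 CPM, lie above those of the 9 other libraries.

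The endosperm list did not fall with the storage genes in its summed level, and its members took different courses. Its 6 genes had a summed level with medians of 190 CPM at 2 d, 121 CPM at 4 d, 91.4 CPM at 8 d and 118 CPM at 14 d, and 2, 2 and 3 of 6 were called lower and 1, 0 and 1 higher over the 3 steps. GBSSI fell most like the storage genes, with medians of 91.0, 33.7, 0.887 and 0.193 CPM, and OS01G0633100, annotated as a large subunit of ADP-glucose pyrophosphorylase, had medians of 17.5, 7.38, 5.38 and 16.7 CPM. OS08G0345800, the largest part of the sum at 14 d, had medians of 43.8, 41.1, 55.4 and 79.2 CPM. OS02G0528200 fell at each step, with medians of 24.3, 17.9, 14.5 and 2.33 CPM. OS06G0229800 had medians of 0.789, 3.45, 0.277 and 0.116 CPM, and OS08G0520900 of 13.9, 17.5, 16.5 and 20.2 CPM. Across the 16 group means, the profiles of the 8 genes had Pearson r between 0.962 (GluB2) and 0.999 (GluA1) with their common mean profile, a description over points that share the course of days. Each of the 8 genes is part of that mean profile, which by itself raises its r. Outside the 8 and the lists, the genes most like this mean profile were OS07G0214600 (r = 0.999) and OS02G0202400 (r = 0.998). Neither has a name in the sources used here. Next came OS07G0213800 (r = 0.998), OS07G0215500 (r = 0.994) and OS07G0214300 (r = 0.993). In all, 11 of 26144 genes had r above 0.99.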

How the data were processed

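RNA was measured by strand-specific poly(A)+ sequencing in 45 libraries of 4 genotypes and 4 days. Per the labels and the study's methods, the authors trimmed reads with trim_galore 0.4.1, aligned them with TopHat 2.0.14 and Bowtie2 2.2.5 to the japonica reference IRGSP 1.0 and deposited raw read counts per gene in 1 table. IR64 is an indica cultivar, so reads of diverged or duplicated genes may be lost or split. The members and the gene lists were chosen with earlier results of these data known.

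Counts were filtered with filterByExpr and fitted in edgeR 4.0.16 (R 4.3.3) as 16 groups, with TMM scaling and the quasi-likelihood test. Intervals are normal-approximation 95% intervals made from the SE. For the fold bounds only, group totals of 0 were replaced by a floor of 3 counts per library. The tests and the shares used the counts as they were. Shares of the 8-gene counts were compared between days by permutation test. Named genes were the 8 members, list genes with an annotation in the sources used here, and the genes with the most similar profile. Some further list genes were named by identifier for their levels. The replicates are triplicate biological experiments, and their precision is limited by 2 or 3 libraries per group. On simulated counts with 200 genes changed 4-fold, 200 (100%) were recovered with 2 false calls for IR64 at 4 d against 2 d, and 199 (99.5%) with 7 false calls for IR64(AG1,SUB1) against IR64 at 2 d, among 25142 genes. The changed genes were drawn from genes with a mean above 100 counts. Apart from these changes, all simulated libraries shared a common mean level per gene. They had no differences between days and no shifts shared by several genes of a library. Recovery of smaller changes, of genes near the floor, or in the presence of such shifts was therefore not tested. Replicate numbers were taken to pair 2 groups where every same-numbered pair had deviations correlated at r above 0.1, which held for IR64(AG1) and IR64 at 8 d (0.129 to 0.257) and at 14 d (0.17 to 0.231). Alternatives were DESeq2 1.42.0, no count filter, the study's added 5 counts with a likelihood ratio test, a replicate block over all days, the groups compared alone, leaving out single libraries and, chosen after seeing the data, leaving out 4 libraries that stood apart and a replicate block within each day. Of the storage list, only the genes given by identifier were used, and a comparison of protein and promoter sequences was not run.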

Additional observations from a re-analysis of the deposited data

Results flagged for a closer look

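The difference between IR64(AG1,SUB1) and IR64 changed between 2 and 14 d for 4 of the 8 genes, by a test of that change in the edgeR fit, where 1.79% of all genes were called higher in the same way. On the log2 scale the change was 2.64 for GluA1 (FDR 0.0162), 2.86 for GluA3 (FDR 0.0293), 3.92 for GluB4 (FDR 0.0326) and 3.97 for alpha-globulin (FDR 0.0464). In IR64 at 14 d, GluB4 had 5 counts and alpha-globulin 9, all of them in replicate 3. The size of the change in these genes therefore rests on few counts. Each of the 4 genes was lower in the pyramided line than in IR64 at 2 d and higher at 14 d in the fitted values. The 4 calls share the same 11 libraries. Without replicate 3 of the pyramided line at 14 d none of the 4 was called, with FDR 0.0776 for GluA1, 0.0784 for GluA3, 0.26 for GluB4 and 0.305 for alpha-globulin. Without replicate 1 of IR64 at 14 d none was called either, with FDR 0.0543 for GluA1, 0.0973 for GluA3, 0.095 for GluB4 and 0.125 for alpha-globulin. Leaving out replicate 2 of the pyramided line at 14 d, replicate 2 of IR64 at 14 d, either library of the pyramided line at 2 d or any library of IR64 at 2 d also ended 1 or more of the 4 calls, with FDR between 0.0547 and 0.136.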

How the results depend on the processing

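Summed over the 4 genotypes, the counts of storage genes called lower between days stayed within 1.5 times of their values under every alternative run, and no result changed direction. By genotype, the count at 14 d against 8 d in the pyramided line was 4 in place of 7 without its replicate 1 at 8 d or at 14 d. At 4 d against 2 d, its count of 1 was 0 without its replicate 2 at 2 d or at 4 d, 0 with 5 counts added and 2 with the replicate block, with only the groups compared and without the 4 libraries that stood apart, and the count of 4 in IR64(AG1) was 2 with DESeq2 and 2 without its replicate 3 at 4 d. For 75 single-gene results, 437 of 455 values under other settings kept their call and 18 lost it, and of 847 values with a single library left out 782 kept their call, 60 lost it and 5 gained it. The counts between genotypes moved, and the cause was not tested. For IR64(AG1,SUB1) against IR64, the lower count of 1 was 2 with DESeq2, 2 with 5 counts added, 7 with only the groups compared and 6 without the 4 libraries that stood apart, and the higher count of 0 was 3, 1, 0 and 1 under these. Against IR64(AG1), the lower count of 0 was 1, 1, 6 and 5, and the higher count of 1 was 2 with DESeq2, 0 with only the groups compared and 0 without the 4 libraries. Against IR64(SUB1), the lower count of 0 was 1 with 5 counts added and 1 without the 4 libraries, and the higher count of 3 was 5 with DESeq2 and 1 with only the groups compared. DESeq2 called 1 gene lower in IR64(SUB1) against IR64, 1 higher in IR64(AG1) against IR64(SUB1) and 2 higher for the interaction, which had 1 higher with 5 counts added, 1 higher without the 4 libraries and 2 lower with only the groups compared. With single libraries left out, the counts ranged, lower and higher, from 0 to 1 and 0 to 2 for IR64(AG1) against IR64, 0 to 1 and 0 to 2 for IR64(AG1,SUB1) against IR64, 0 to 1 and 0 to 2 against IR64(AG1), and 0 to 1 and 1 to 5 against IR64(SUB1), and from 0 to 1 higher for the interaction. Depth limits the genes at or under 3 counts at 14 d.

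Replicate numbers paired the libraries of IR64(AG1) and IR64 at 8 and 14 d, where every same-numbered pair had correlated deviations at r above 0.1, and no other 2 groups. Same-numbered libraries of 2 genotypes on a day had correlated deviations in 17 of 63 pairs at r above 0.1 (range -0.0998 to 0.274), and those of 2 days of a genotype in 0 of 63. With the replicate block, IR64(AG1) against IR64 kept 0 calls, the count of 1 lower against IR64 was 0 (GluA2 at -0.97, FDR 0.0418), the count of 1 higher against IR64(AG1) was 0 (GluA3, FDR 0.0519), and alpha-globulin was no longer called for its change between 2 and 14 d (FDR 0.0511), while the calls over all genes moved by over 1.5 times in 0 of 40 comparisons. A replicate block within each day, chosen after seeing the data and used for same-day comparisons, also left 0 calls in IR64(AG1) against IR64. With it, the lower and higher counts of the pyramided line were 6 and 1 against IR64, 6 and 2 against IR64(AG1) and 1 and 4 against IR64(SUB1), with GluA2 at 2 d (FDR 0.0021), GluA3 at 14 d against IR64(AG1) (FDR 0.0498) and alpha-globulin (FDR 0.00725) called.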
